A study of Mus musculus with 14 samples.

Results

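The 1326 cells of 5 droplet libraries, out of 5441 cells in 14 libraries, span birth in the spiral ganglion of the mouse: 862 cells of 3 libraries from embryonic day 18 (E18) and 464 cells of 2 libraries from postnatal day 1 (P1). All cells of these libraries were taken, whatever their type, and the counts of each library were summed, so that the library and not the cell is the replicate. The study profiled CD1 mouse ganglia at 4 ages, E14, E16, E18 and P1. Both ages compared here carry no stated genotype or treatment. Both were handled alike: whole ganglia of 5 animals per pool were digested for 25 minutes in papain at 20 U/mL, whereas the 2 younger ages were digested with trypsin. The labels state separate litters for the E18 libraries and call the P1 libraries biological replicates. The dissected tissue kept part of the sensory epithelium and of the mesenchyme. Libraries were made with a 10x Chromium 3′ kit, which counts unique molecular identifiers (UMIs), 1 for each captured transcript.

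Spiral ganglion neurons carry sound information from the hair cells of the cochlea to the brainstem. Type I neurons contact inner hair cells and fall into subtypes named IA, IB and IC, while the sparser type II neurons contact outer hair cells. Mice hear only well after birth. Around birth the neurons still fire in bursts driven by the developing cochlea, and birth also brings a change of temperature, oxygen, fuel and hormones for the whole animal. Sodium and potassium channels set their firing, calcium-binding proteins buffer the calcium that firing lets in, and mitochondria supply the energy for ion pumps.

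The label of spiral ganglion neurons held in the summed libraries. All 18 neuron markers were measured, among them Nefl and Tubb3, and their summed level (UMI counts scaled to a common library total with TMM factors, CPM) was 14980 to 18433 at E18 and 20427 and 18703 at P1. Under this scaling their sums did not overlap between ages. Singly, 7 of the 18 markers (38.9%) had higher P1 libraries without overlap, against 10.3% of all tested genes. In cells drawn down at random to 5000 UMIs each, without TMM factors, the mean sum per cell overlapped. It was 76.1, 79.7 and 76.9 UMIs at E18 and 86.6 and 74.0 at P1. The part of these markers in the differences of other lists was not tested. The glial list summed to 282 to 407 CPM. Totals were 1460876 to 3026607 UMIs per library, with a median of 4676 to 11440 UMIs per cell. E18 replicate 1 stood apart: 0.666% of its UMIs came from the mitochondrial ribosomal RNA mt-Rnr2, against 0.0973% to 0.183% in the other libraries, and 0.828% from the nuclear RNA Malat1, against 1.65% to 2.83%. E18 replicate 2 was the shallowest, with 4676 UMIs per cell. Of 1325 distinct cell barcodes, 1 occurred in 2 libraries. Since single libraries move the lists, each list median is given with its left-out range, the lowest and highest median when each of the 5 libraries is left out in turn, and the plot of list medians shows the values without E18 replicate 1.

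Across all genes the step over birth was no larger than the spread between libraries of 1 age. The median absolute log2 difference between libraries was 0.242, 0.307 and 0.333 for the 3 pairs within E18 and 0.276 for the pair within P1. For the 6 pairs that cross birth it ran from 0.235 to 0.364, and the smallest value of all 10 pairs was that of E18 replicate 3 and P1 replicate 2. In the fitted comparison the median absolute log2 difference was 0.27 and the median standard error (SE) 0.30, and 1.73% of genes lay above a log2 difference of 1 and 4.05% below -1.

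**Figure D1:**
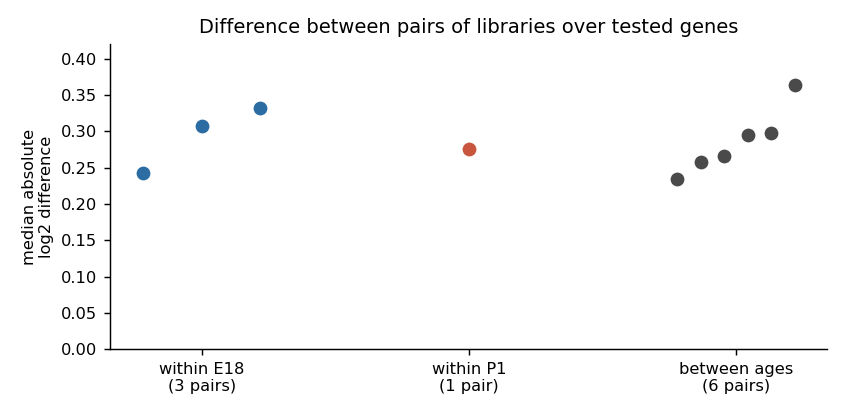
Median absolute log2 difference in CPM (with a pseudocount of 5 CPM) over tested genes, 1 point for each pair of libraries, grouped by whether the pair lies within E18, within P1 or crosses birth. The pairs that cross birth, from 0.235 to 0.364, cover the range of the pairs within 1 age.

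Of 12547 tested genes, 0 were called higher and 1 lower at P1 by edgeR's quasi-likelihood test with a Benjamini-Hochberg adjusted p under 0.05, which is 0% and 0.00797% of genes. At an unadjusted p under 0.05 there were 1149 genes (9.16%), 579 higher (4.61%) and 570 lower (4.54%). DESeq2 on the same sums called 14 higher and 1 lower. The libraries of both ages did not overlap for 1294 genes with higher values at P1 (10.3%) and 1269 with lower values (10.1%). In all, 47.2% of genes had a positive log2 difference (P1 minus E18, throughout), with a median of -0.03. These shares are the background for each list. When libraries were scaled by total counts alone, the median of all genes moved to -0.19 and 31.5% were positive, so list medians under that scaling are to be read against -0.19.

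The gene that fell was Gm10320, which the mouse annotation places on chromosome 13 (98489348 to 98492001, minus strand, mm10) as protein coding and the RefSeq table as a pseudogene. It stood at 113, 41.4 and 144 CPM in E18 replicates 1 to 3 and at 4.50 and 4.90 CPM in P1 replicates 1 and 2. The lowest E18 library lay far above both P1 libraries. The log2 difference was -4.41 (SE 0.50, edgeR adjusted p = 0.00197). At E14 and E16 the 6 profiles lay between 52.0 and 83.7 CPM, so of the 4 ages P1 had the low level. The call rests on few libraries: with P1 replicate 1 left out the adjusted p was 0.142, without P1 replicate 2 it was 0.0856, and with only the 5 libraries of both ages in the fit it was 0.085, with a log2 difference of -4.34 to -4.46 in these 3 fits.

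Its transcript is nearly that of Sec61b, which encodes the beta subunit of the channel that passes new proteins into the endoplasmic reticulum (chromosome 4, 47474658 to 47483242, plus strand). Of 503 stretches of 25 bases in Gm10320, 296 (58.8%) also occur in a Sec61b transcript. Both sequences are shown because reads of 1 can be counted for the other. They are the 291 bases of the Sec61b reading frame and the matching bases of Gm10320 from the GENCODE transcripts, with the 5 differing bases in capitals.
Gm10320: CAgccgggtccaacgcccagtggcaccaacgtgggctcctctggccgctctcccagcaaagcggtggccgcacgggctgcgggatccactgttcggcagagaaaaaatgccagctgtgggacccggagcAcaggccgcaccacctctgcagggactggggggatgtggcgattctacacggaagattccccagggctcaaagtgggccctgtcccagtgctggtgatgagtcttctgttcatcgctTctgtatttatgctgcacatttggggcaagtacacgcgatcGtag
Sec61b: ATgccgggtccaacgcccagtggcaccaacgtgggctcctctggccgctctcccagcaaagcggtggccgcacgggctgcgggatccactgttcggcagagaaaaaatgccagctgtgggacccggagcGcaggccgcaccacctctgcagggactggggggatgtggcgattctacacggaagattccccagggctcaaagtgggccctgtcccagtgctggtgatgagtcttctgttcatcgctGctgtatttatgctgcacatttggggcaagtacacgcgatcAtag
In the 180 bases after the stop codon, where reads of a 3′ kit mostly fall, 4 bases differed. Counts of this pair are therefore uncertain. Sec61b itself stood at 103, 360 and 396 CPM at E18 and at 282 and 530 CPM at P1, with ages overlapping (log2 0.51, SE 0.39, and 0.10 without E18 replicate 1). E18 replicate 1, lowest for Sec61b, was not lowest for Gm10320.

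Cell by cell, Gm10320 was seen in a far smaller share of cells at P1. After thinning each cell to 5000 UMIs, which keeps 363, 119 and 155 E18 cells and 253 and 175 P1 cells, at least 1 UMI was found in 43.0% of cells (exact 95% Clopper-Pearson interval 37.8% to 48.2%), 16.8% (10.6% to 24.8%) and 43.2% (35.3% to 51.4%) at E18. At P1 the share was 1.98% (0.645% to 4.55%) and 1.14% (0.139% to 4.07%). Such intervals cover counting error only. In the same P1 cells the haemoglobin gene Hbb-bs, which neurons should lack, had a UMI in 4.74% and 4.00%. The P1 shares of Gm10320 lay below these, and which part of them was free RNA was not tested. Without thinning the shares were 57.3%, 14.6%, 56.2%, 3.80% and 2.99%.

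Among genes that did not pass in edgeR, Rbm3 and Cirbp encode cold-inducible proteins. Both are glycine-rich RNA-binding proteins known to increase when body temperature falls mildly. Rbm3 (chromosome X, 8138975 to 8145880) stood at 622, 716 and 621 CPM at E18 and at 1419 and 1016 CPM at P1 (log2 0.90, SE 0.19). The E18 libraries were close to one another and to the younger ages, which spanned 486 to 564 CPM, and both P1 libraries lay above them. Cirbp (chromosome 10, 80165985 to 80172786) stood at 458, 854 and 865 CPM at E18 and at 1184 and 1636 CPM at P1 (log2 0.96, SE 0.25, and 0.72 without E18 replicate 1). Its lowest library was E18 replicate 1, and again the ages did not overlap. Neither gene passed the adjusted threshold in edgeR (adjusted p = 0.253 and 0.28), while DESeq2 called Rbm3 (adjusted p = 0.000746) and not Cirbp.

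Both differences appeared across the bulk of cells and not in a few. At 5000 UMIs per cell the median of Rbm3 was 3, 3 and 2 UMIs at E18 and 6 and 4 at P1, and its means were 3.25, 3.11, 2.59, 5.98 and 3.96. The variance over cells stayed near the mean, with a variance-to-mean ratio of 0.959 to 1.21. For Cirbp the median was 2, 3 and 4 UMIs at E18 and 5 and 6 at P1. The 90th percentile of Cirbp was 5, 6 and 7 UMIs at E18 and 8.8 and 10.6 at P1. The Cirbp promoter is shown because a mild-cold element, TCCCCGCC, has been described for this gene. The 250 bases before a listed RefSeq start (GRCm38.p6, chr10:80167589-80167838, plus strand) hold those letters once, in capitals.
Cirbp: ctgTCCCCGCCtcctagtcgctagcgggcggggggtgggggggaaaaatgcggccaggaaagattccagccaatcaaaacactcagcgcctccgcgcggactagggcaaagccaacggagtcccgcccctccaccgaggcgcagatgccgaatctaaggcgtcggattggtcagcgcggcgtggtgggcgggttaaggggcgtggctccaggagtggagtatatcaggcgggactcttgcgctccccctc
The same letters, on either strand, occur in 5.37% of 27025 genes with a listed promoter and in 10.3% of the 8974 tested genes that matched. A match of letters is not a binding site.

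The 12 genes named for the largest log2 differences above 0 were Tnnt1, Rad51ap2, Lhfpl3, Mir22hg, Nexn, Ocel1, RP24-335A22.6, Arhgap31, Snapc5, Avpi1, Acbd7 and Mir670hg. Their log2 differences ran from 1.12 to 2.34, and the lowest adjusted p, that of Snapc5, was 0.249 in edgeR. Snapc5, a subunit of the complex that starts transcription of small nuclear RNAs, stood at 65.1, 59.1 and 69.2 CPM at E18 and at 137 and 152 CPM at P1 (log2 1.16, SE 0.21). Acbd7, an acyl-CoA binding protein, stood at 27.2, 31.1 and 18.1 CPM at E18 and at 57.7 and 56.4 CPM at P1 (log2 1.15, SE 0.26). It is also on the list of hair cell markers, whose summed level was higher at P1 without overlap. The part of hair cell RNA in its difference was not tested. The naming rule required libraries without overlap for all 12 genes, so the gap between ages was fixed by that choice. Avpi1, named for its induction by vasopressin, stood at 23.3, 17.0 and 15.7 CPM at E18 and at 41.3 and 45.0 CPM at P1 (log2 1.15, SE 0.22). Mir22hg, the host transcript of a microRNA, stood at 20.1, 10.4 and 19.8 CPM at E18 and at 51.1 and 37.6 CPM at P1 (log2 1.39, SE 0.30). Tnnt1, slow skeletal muscle troponin T, had the largest difference (log2 2.34, SE 0.63) but rested on P1 replicate 2. Its levels were 9.07, 2.96 and 10.7 CPM at E18 and 14.3 and 70.3 CPM at P1.

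DESeq2 called 13 higher genes beside Rbm3, and those printed here were named after their values were seen, among them Snapc5, Clec2l, Fxyd7, Sod1, Bend6, Mpc2, Ptrhd1, Mpc1, Haghl, Mir22hg, Ocel1 and Avpi1. None passed in edgeR, where their adjusted p lay between 0.249 and 0.273. All had libraries that did not overlap, against 10.3% of all tested genes with higher values at P1. DESeq2 called them on the same sums, so that gap between ages is no separate support. Mpc1 and Mpc2 encode both subunits of the mitochondrial pyruvate carrier, which lets the end product of glycolysis into mitochondria. Mpc1 stood at 411, 555 and 629 CPM at E18 and at 856 and 923 CPM at P1 (DESeq2 log2 0.77, adjusted p = 0.0327). Mpc2 stood at 607, 551 and 721 CPM at E18 and at 1082 and 989 CPM at P1 (DESeq2 log2 0.75, adjusted p = 0.0275). In each, P1 lay above every E18 library. Sod1, the cytosolic superoxide dismutase, stood at 87.2, 103 and 118 CPM at E18 and at 175 and 200.3 CPM at P1 (DESeq2 log2 0.90, adjusted p = 0.0062).

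**Figure D2:**
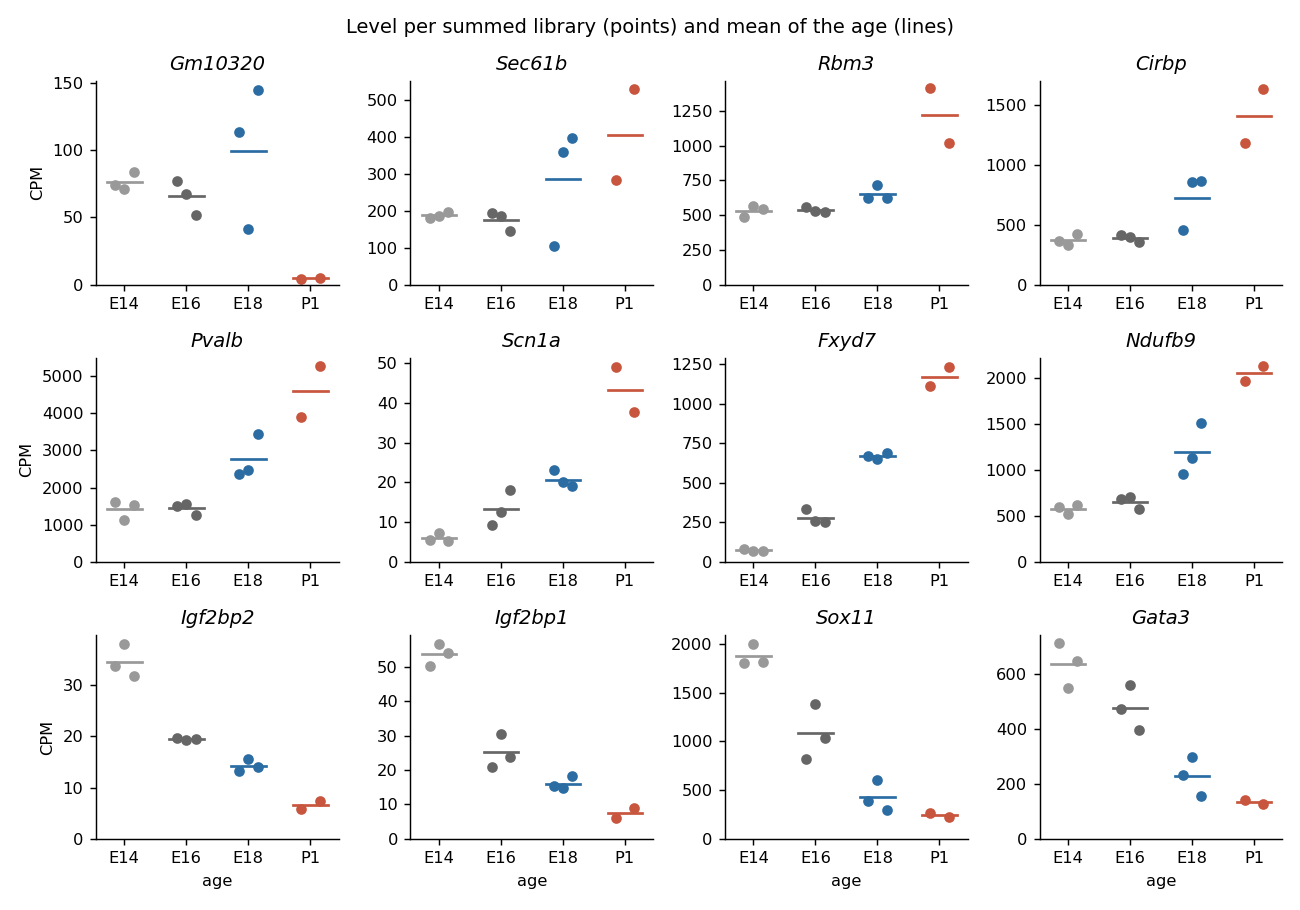
Level in CPM (y axes, linear from 0) of 12 genes in each of the 11 summed profiles, by age (x axes), with points for libraries and lines for the mean of an age. E16 points are the sums of an apical and a basal library. Gm10320 stood at 4.50 and 4.90 CPM at P1 and above 41 CPM in all other profiles, and Rbm3 stood at 1419 and 1016 CPM at P1 and at 486 to 716 CPM in all other profiles.

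Most genes for oxidative phosphorylation had higher values at P1, with no single gene past the threshold. Complexes I, III and IV pass electrons along the inner mitochondrial membrane and ATP synthase uses the resulting proton gradient. Of 77 tested nuclear genes for these complexes, 67 had a positive log2 difference, with a median of 0.33 against -0.03 for all tested genes. The libraries did not overlap for 24 of the 77 (31.2%), all with higher values at P1, against 10.3% of all genes. The median was 0.20 with 51 positive without P1 replicate 2, and to 0.21 with 57 positive without E18 replicate 1, and reached 0.50 without E18 replicate 3. Their summed level was lowest in E18 replicate 1, at 63520 CPM, and highest in P1 replicate 2, at 117862 CPM. Scaled by total counts it was 0.20.

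Within complex I, 36 of 37 tested subunits were positive, with a median of 0.33. Higher libraries without overlap were found for 15 (40.5%), against 10.3% of all genes. Ndufb9, an accessory subunit, stood at 952, 1137 and 1513 CPM at E18 and at 1975 and 2141 CPM at P1 (log2 0.78, SE 0.21). Ndufs4, a subunit needed for a stable complex, stood at 325, 324 and 335 CPM at E18 and at 475 and 444 CPM at P1 (log2 0.49, SE 0.17). Its E18 libraries lay close together, and P1 lay above all of them. Ndufb6 and Ndufb10 had log2 differences of 0.50 (SE 0.18) and 0.50 (SE 0.19), also without overlap. The complex I median was 0.23 both without P1 replicate 2 (26 positive) and without E18 replicate 1 (28 positive), and 0.50 without E18 replicate 3.

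For complexes III and IV, 20 of 23 genes were positive (median 0.34), and 4 (17.4%) were higher without overlap, against 10.3% of all genes. Leaving out P1 replicate 2 brought that median to 0.14 with 15 positive, and the highest value was 0.50 without E18 replicate 3. Cox4i1, a subunit of cytochrome c oxidase, stood at 2385, 2970 and 3556 CPM at E18 and at 4018 and 4571 CPM at P1 (log2 0.53, SE 0.22). Cyc1, cytochrome c1 of complex III, had a log2 difference of 0.39 (SE 0.18), also without overlap. Cox7b had the largest value (log2 0.79, SE 0.26), but its libraries overlapped, with 1681 CPM in P1 replicate 1 and 1770 in E18 replicate 3. For ATP synthase 11 of 17 genes were positive, with a median of 0.28. Without overlap 5 (29.4%) were higher, among them Atp5d (log2 0.51, SE 0.18). Without P1 replicate 2 that median was 0.06 with 10 positive, near that of all genes, and without E18 replicate 3 it was 0.40. Atp5k was at -0.60 (SE 0.38), with 245 CPM in P1 replicate 1 and 703 to 767 CPM in the other 4 libraries.

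Mitochondrial ribosomal proteins, a family listed only after its values were seen, showed the same size of difference. Of 77 tested members, 65 were positive with a median of 0.30 (left-out range 0.21 without E18 replicate 1 to 0.40 without E18 replicate 3). Higher libraries without overlap were found for 24 (31.2%), against 10.3% of all genes. Mrps26 stood at 163, 135 and 157 CPM at E18 and at 231 and 255 CPM at P1 (log2 0.67, SE 0.18). Of the 13 tested genes of the mitochondrial genome, 9 were positive with a median of 0.37 (0.18 with 7 positive without P1 replicate 2, and up to 0.56 without E18 replicate 2). Among them 3 (23.1% of the 13) were higher without overlap. mt-Nd2, a complex I subunit, stood at 2690, 4340 and 4829 CPM at E18 and at 6010 and 5658 CPM at P1 (log2 0.56, SE 0.26). mt-Rnr2 was lowest in 2 E18 libraries and highest in E18 replicate 1, and its log2 difference turned from -0.56 to 0.74 without that library. The cytosolic ribosomal proteins did not share this direction: 31 of 79 were positive with a median of -0.14. That median was 0.05 without P1 replicate 1 or without E18 replicate 2 and -0.41 without P1 replicate 2, so it takes its sign from single libraries.

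**Figure D3:**
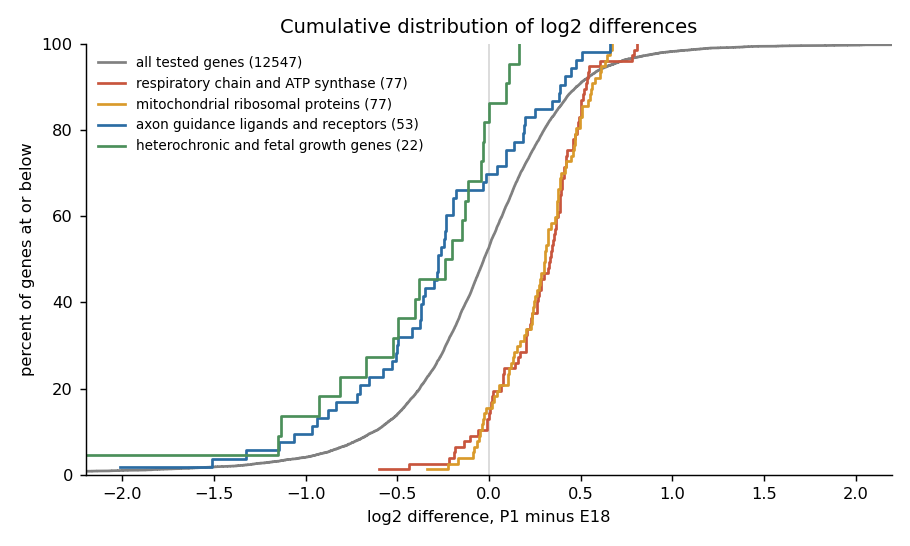
Cumulative share of genes (y axis, percent) against the log2 difference of P1 minus E18 (x axis), for all tested genes and 4 groups with their number of tested genes. The curves of the 77 respiratory chain and ATP synthase genes and of the 77 mitochondrial ribosomal protein genes lie to the right of all genes (medians 0.33, 0.30 and -0.03), and those of axon guidance and fetal growth genes to the left (-0.28 and -0.22).

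Promoters of a member of each group are shown, chosen as the member with the smallest unadjusted p whose promoter holds the motif in capitals: the ETS motif CCGGAAG for Mrps26 and the NRF1 motif for Ndufa8, on either strand. NRF1 and factors of the ETS family are known regulators of nuclear genes for mitochondria. The sequences are the 250 bases before the RefSeq start in GRCm38.p6, chr2:130563507-130563756 on the plus strand for Mrps26 and chr2:36049339-36049588 on the minus strand for Ndufa8.
Mrps26: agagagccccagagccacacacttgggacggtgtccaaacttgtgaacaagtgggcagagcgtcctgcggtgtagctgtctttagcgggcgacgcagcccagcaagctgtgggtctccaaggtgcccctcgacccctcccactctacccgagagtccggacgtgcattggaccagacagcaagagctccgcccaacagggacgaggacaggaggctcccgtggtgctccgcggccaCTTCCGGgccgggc
Ndufa8: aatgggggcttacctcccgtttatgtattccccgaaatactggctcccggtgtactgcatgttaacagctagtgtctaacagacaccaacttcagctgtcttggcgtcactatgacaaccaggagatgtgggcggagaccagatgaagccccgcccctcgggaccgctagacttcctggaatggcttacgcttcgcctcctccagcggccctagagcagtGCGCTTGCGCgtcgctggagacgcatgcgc
RefSeq promoters matched 63 of the 77 respiratory genes, of which 11 (17.5%) held the NRF1 motif and 11 (17.5%) the ETS motif. Of 67 matched mitochondrial ribosomal protein genes, 10 (14.9%) held the NRF1 motif and 16 (23.9%) the ETS motif. Among all matched tested genes the shares were 9.97% and 16.3%, and among all promoters 4.23% and 7.83%. Ndufa8 itself stood at 652, 630 and 814 CPM at E18 and at 975 and 902 CPM at P1 (log2 0.43, SE 0.18), with no overlap.

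Within cells, the respiratory genes made up a similar part of the RNA in P1 replicate 1 and in E18 replicates 2 and 3. After thinning to 5000 UMIs, the median cell had 323, 371 and 429 UMIs from the 80 measured genes at E18 and 378 and 477 at P1. The libraries of both ages thus overlapped in the sum, while 24 of the 77 tested members did not overlap singly. The 10th percentile was 276 UMIs in E18 replicate 1 and 381 in P1 replicate 2. For mitochondrial ribosomal proteins the median cell had 51, 52 and 59 UMIs at E18 and 60 and 64 at P1, without overlap.

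**Figure D4:**
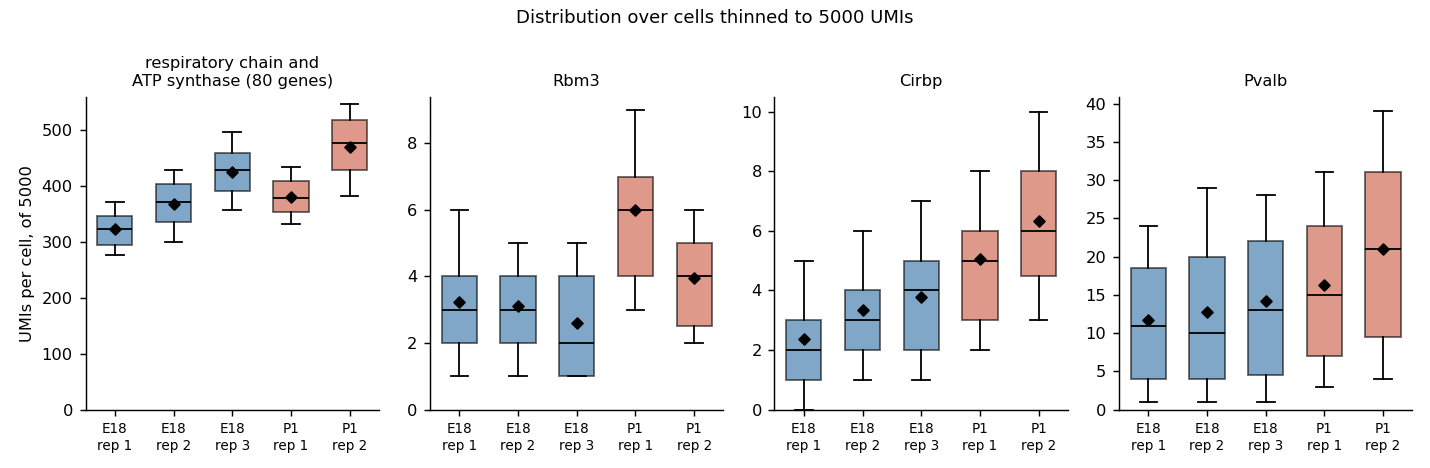
UMIs per cell after thinning each cell to 5000 UMIs (y axes), for the 80 measured respiratory chain and ATP synthase genes together and for Rbm3, Cirbp and Pvalb, by library (x axes). Boxes span the middle quartiles with the median as a line, whiskers reach the 10th and 90th percentiles and diamonds are means; the respiratory sum overlaps between ages (medians of 323, 371 and 429 against 378 and 477), whereas Rbm3 medians were 3, 3 and 2 against 6 and 4.

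Other parts of energy metabolism were mixed. The tricarboxylic acid cycle, which feeds electrons to the respiratory chain, had 17 of 25 genes positive and a median of 0.13, which was -0.04 under total counts (left-out range -0.10 without P1 replicate 1 to 0.30 without P1 replicate 2). Mdh1, a malate dehydrogenase, stood at 1155, 1515 and 1859 CPM at E18 and at 2064 and 2443 CPM at P1 (log2 0.58, SE 0.21). Glycolysis genes had a median of 0.02, 11 of 21 positive (-0.12 under total counts, left-out range -0.34 without P1 replicate 1 to 0.07 without P1 replicate 2). Slc16a3, a lactate exporter, stood at 9.07, 7.39 and 7.41 CPM at E18 and at 1.23 and 2.45 CPM at P1 (log2 -2.27, SE 0.55, edgeR adjusted p = 0.253), and Ldhb, a lactate dehydrogenase subunit, was at 0.38 (SE 0.22). Among genes of fatty acid use, Fabp3, a fatty acid binding protein, stood at 160, 324 and 473 CPM at E18 and at 618 and 566 CPM at P1 (log2 0.90, SE 0.32, and 0.58 without E18 replicate 1). Cpt1a, the carnitine transferase that admits fatty acids to mitochondria, was at 0.71 (SE 0.27), and Ucp2, an uncoupling protein, at -0.99 (SE 0.35). The proteasome, which degrades tagged proteins, had 28 of 31 genes positive with a median of 0.19 (left-out range 0.12 without E18 replicate 1 to 0.25 without P1 replicate 2). Of the 31, 8 (25.8%) were higher without overlap, against 10.3% of all genes. Genes of the hypoxia response had 5 of 22 positive and a median of -0.18 (left-out range -0.34 without P1 replicate 2 to -0.13 without E18 replicate 3), with Ddit4, an inhibitor of growth signalling, at 11.7, 12.6 and 14.8 CPM at E18 and 6.55 and 6.54 CPM at P1 (log2 -0.96, SE 0.34).

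Of the voltage-gated sodium channel genes, which start the action potential, 7 of 12 tested members were positive, with a median of 0.11 that was -0.06 under total counts (left-out range -0.02 without P1 replicate 1 to 0.25 without E18 replicate 1). Scn1a, an alpha subunit of mature neurons, stood at 23, 20.0 and 18.9 CPM at E18 and at 49.1 and 37.6 CPM at P1 (log2 1.07, SE 0.27). The E18 libraries were tight, at P1 the level was well above them, and the younger ages spanned 5.29 to 17.9 CPM. Fgf12, which binds the tails of these channels, was at 0.44 (SE 0.19), also without overlap. Scn8a, the main alpha subunit of mature nodes, was at 0.58 (SE 0.32), with overlapping libraries. Scn3b, a beta subunit, was at -0.79 (SE 0.31), or -0.28 without E18 replicate 1. Other members were Scn2b (0.16), Scn9a (0.05), Scn3a (-0.08), Nalcn (-0.14), Scn11a (-0.23) and Fgf13 (-0.29), with SEs of 0.19 to 0.67. The summed level of the list was 748, 634 and 676 CPM at E18 and 813 and 805 CPM at P1. These did not overlap, and the exact two-sided permutation test gave p = 0.2, the smallest value that 3 against 2 libraries allow. In thinned cells, without TMM factors, the mean sum did overlap. It was 3.84, 3.12 and 2.75 UMIs at E18 and 3.35 and 3.27 at P1.

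Genes for leak, inward and calcium-activated potassium channels, which set the resting potential, had 8 of 12 positive with a median of 0.43 (left-out range 0.24 without P1 replicate 1 to 0.41 without E18 replicate 2). Without overlap 5 (41.7%) were higher and 1 (8.33%) lower, against 10.3% and 10.1% of all genes. Kcnk1 stood at 57.0, 45.8 and 53.5 CPM at E18 and at 113 and 57.2 CPM at P1 (log2 0.73, SE 0.29). Kcnn1, a small-conductance calcium-activated channel, was at 0.75 (SE 0.42), and Kcnj9, an inward rectifier, at -1.77 (SE 0.82) with under 3 CPM in all libraries. The voltage-gated potassium channel list took its sign from single libraries, with a median of -0.11 and 10 of 26 positive, against 0.14 and 20 positive without E18 replicate 1, 0.01 without P1 replicate 1 and -0.21 without E18 replicate 2. Its largest value was that of Kcnip3, a calcium sensor of these channels, at 3.24, 1.48 and 1.65 CPM at E18 and 11.0 and 5.72 CPM at P1 (log2 1.87, SE 0.53). The sodium pump had 1 modulator in each direction. Fxyd7 stood at 667, 652 and 690 CPM at E18 and at 1114 and 1231 CPM at P1 (log2 0.81, SE 0.18, and adjusted p = 0.00469 in DESeq2 against 0.253 in edgeR). Fxyd6 stood at 177, 176 and 129 CPM at E18 and at 90.4 and 101 CPM at P1 (log2 -0.76, SE 0.21). Neither member's libraries overlapped. Atp1b1, the beta subunit of the pump, was at 0.56 (SE 0.19).

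Genes of the nodes of Ranvier, the gaps in the myelin at which axons regenerate the spike, had 12 of 20 positive and a median of 0.09 (-0.08 under total counts, left-out range -0.06 without E18 replicate 2 to 0.24 without E18 replicate 1). Without overlap 5 (25%) were higher and 1 (5%) lower, against 10.3% and 10.1% of all genes. Cntn1 and Cntnap1, the axonal partners at the junction beside the node, were at 0.58 (SE 0.18) and 0.75 (SE 0.31). Cntnap1 stood at 15.6, 13.3 and 14.8 CPM at E18 and at 24.1 and 25.3 CPM at P1. Nefh, the heavy neurofilament of thick axons, stood at 304, 241 and 287 CPM at E18 and at 605 and 362 CPM at P1 (log2 0.81, SE 0.24). Tuba1a, a tubulin of growing neurons, was at -0.48 (SE 0.23). At the synapse, vesicle genes as a list were flat (24 of 46 positive, median 0.02, -0.16 under total counts, left-out range -0.12 without P1 replicate 2 to 0.15 without P1 replicate 1). Sv2c, a vesicle protein, stood at 2.27, 5.18 and 4.12 CPM at E18 and at 12.7 and 12.3 CPM at P1 (log2 1.84, SE 0.40), and Syt2, a fast calcium sensor of release, was at 0.92 (SE 0.45). Slc17a6, a vesicular glutamate transporter, was at 0.52 (SE 0.23), with no overlap.

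Calcium-binding proteins carried more of the RNA at P1. Their 37 measured genes summed to 12956, 13474 and 16097 CPM at E18 and to 19448 and 19157 CPM at P1, without overlap (exact two-sided permutation p = 0.2, the smallest possible). As a list the 34 tested members were near the background, with 21 positive and a median of 0.10 (-0.06 under total counts, left-out range 0.06 without P1 replicate 1 to 0.20 without E18 replicate 3). Pvalb, parvalbumin, stood at 2359, 2477 and 3449 CPM at E18 and at 3902 and 5280 CPM at P1 (log2 0.73, SE 0.23). In thinned cells its median was 11, 10 and 13 UMIs at E18 and 15 and 21 at P1, and the 90th percentile was 24, 29 and 28 UMIs against 31 and 39. Calm3, a calmodulin gene, was at 0.33 (SE 0.17), with no overlap. Slc8a1, a sodium-calcium exchanger, stood at 1.62 to 5.18 CPM at E18 and at 6.14 and 13.1 CPM at P1 (log2 1.39, SE 0.56). Rcn1, a calcium-binding protein of the endoplasmic reticulum, stood at 65.8, 93.9 and 80.7 CPM at E18 and at 56.9 and 40.9 CPM at P1 (log2 -0.68, SE 0.22). S100a13 (-0.81, SE 0.40), S100a1 (-0.43, SE 0.30) and Atp2b4 (-0.87, SE 0.51), a calcium pump, also had lower P1 libraries without overlap.

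Type IA markers summed to 2758, 2430 and 2624 CPM at E18 and to 3775 and 3260 CPM at P1, without overlap (exact two-sided permutation p = 0.2, the smallest possible). In thinned cells their mean sum did overlap, at 13.7, 11.7 and 10.7 UMIs at E18 and 15.6 and 13.1 at P1. As lists, type IA markers had 4 of 8 positive with a median of 0.01 (-0.14 under total counts, left-out range -0.04 without E18 replicate 3 to 0.08 without E18 replicate 2), and markers of types IB and IC 7 of 11 with a median of 0.13 (-0.01 under total counts and without either P1 library, and up to 0.19 without E18 replicate 3). Calb2, calretinin and the main type IA marker, stood at 1935, 1547 and 1619 CPM at E18 and at 3083 and 1921 CPM at P1, with overlap (log2 0.56, SE 0.41). Mdga1, another type IA marker, was spread within P1, at 349 and 1023 CPM. Lypd1, a marker of the other type I neurons, was at 0.13 (SE 0.18) and Runx1, a factor of type IC neurons, at -0.03 (SE 0.20), while Pou4f1, a factor of types IB and IC, was at -0.15 (SE 0.27). For Runx1 all 5 libraries lay between 163 and 174 CPM. Cells with at least 1 UMI of both Calb2 and Lypd1 were 23.7%, 19.3% and 22.6% of thinned cells at E18 and 42.3% and 29.7% at P1. With at least 3 UMIs of each gene the shares were 11.3%, 5.88% and 9.68% against 20.6% and 9.71%. The lowest P1 value, 9.71%, then lay inside the range of E18.

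Type II markers had lower values at P1 as a list, with 1 of 9 tested members positive and a median of -0.47 (left-out range -0.53 without P1 replicate 2 to -0.21 without E18 replicate 1). Without overlap 4 (44.4%) were lower, against 10.1% of all genes. Gata3, a transcription factor kept by type II neurons, stood at 233, 299 and 156 CPM at E18 and at 142 and 128 CPM at P1 (log2 -0.76, SE 0.25). Etv4 was at -0.71 (SE 0.31) and Prph, the filament peripherin, at -0.47 (SE 0.23). Both had lower P1 libraries without overlap. Th, tyrosine hydroxylase, was at -0.49 (SE 0.33), Tac1 at -0.55 (SE 0.51), Ngfr at -0.17 (SE 0.37), Calca at -0.13 (SE 0.60) and Plk5 at 0.40 (SE 0.45). The summed level was 2182, 1993 and 1654 CPM at E18 and 1611 and 1374 CPM at P1. In thinned cells, without TMM factors, the mean sum did overlap, at 10.7, 9.18 and 6.74 UMIs at E18 and 6.78 and 5.39 at P1. The list was read in nearly every cell: 0% to 2.58% of the thinned cells of a library had no UMI of it. Its sum was thus not confined to a sparse type, and the part of type II neurons in it was not tested. In such sums, fewer cells of a type and less RNA per cell cannot be told apart.

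**Figure D5:**
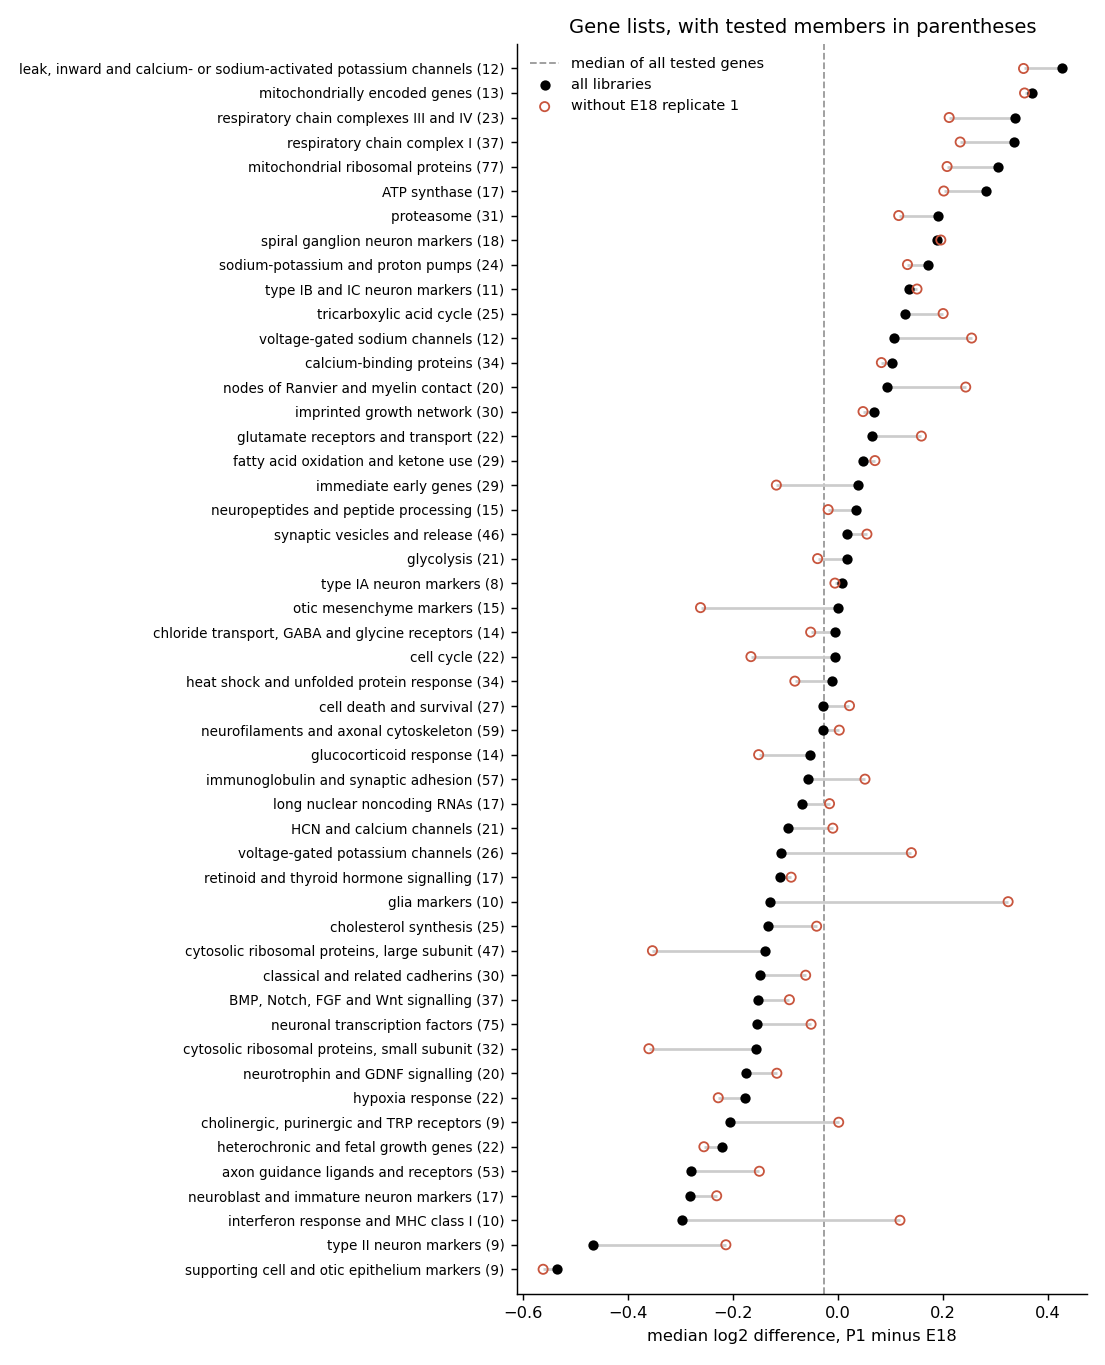
Median log2 difference of P1 minus E18 (x axis) for gene lists with at least 7 tested members (y axis, number tested in parentheses), with all libraries (filled) and without E18 replicate 1 (open). The dashed line is the median of all tested genes, -0.03. Lists of nuclear genes for the respiratory chain, ATP synthase and mitochondrial ribosome lie between 0.28 and 0.34 and at 0.20 to 0.23 without that library, mitochondrially encoded genes lie at 0.37 and 0.36, and the voltage-gated potassium channel list changes sign.

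Genes of fetal growth and immature neurons lay to the lower side. Of 22 heterochronic and fetal growth genes, 4 were positive and the median was -0.22 (left-out range -0.36 without P1 replicate 1 to -0.06 without E18 replicate 2). Without overlap 6 (27.3%) were lower, against 10.1% of all genes. Igf2bp1 and Igf2bp2 encode RNA-binding proteins of fetal tissue. Igf2bp2 stood at 13.3, 15.5 and 14.0 CPM at E18 and at 5.73 and 7.36 CPM at P1 (log2 -1.15, SE 0.28). Igf2bp1 stood at 15.2, 14.8 and 18.1 CPM at E18 and at 6.14 and 8.99 CPM at P1 (log2 -1.14, SE 0.31). Both extended an order seen at the younger ages, with Igf2bp1 at 50.3 to 56.7 CPM at E14 and 21.0 to 30.5 CPM at E16. Ezh2, a histone methyltransferase, was at -0.50 (SE 0.23). Neuroblast and immature neuron markers had 2 of 17 positive and a median of -0.28 (left-out range -0.40 without E18 replicate 3 to -0.15 without E18 replicate 2). Sox11, a factor of new neurons, stood at 393, 605 and 297 CPM at E18 and at 265 and 226 CPM at P1 (log2 -0.81, SE 0.28), below its level at E14 of 1809 to 2002 CPM. The imprinted genes were split, with a median of 0.07 that was -0.10 under total counts (left-out range 0.05 without P1 replicate 2 to 0.12 without E18 replicate 3): Nap1l5, a histone chaperone gene, stood at 160, 202 and 200.2 CPM at E18 and at 375 and 274 CPM at P1 (log2 0.80, SE 0.20), and H19 was at -1.51 (SE 0.53).

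Axon guidance genes, which steer growing axons, had 16 of 53 positive and a median of -0.28 (left-out range -0.34 without E18 replicate 2 to -0.15 without E18 replicate 1), with 10 lower and 3 higher without overlap, that is 18.9% and 5.66% against 10.1% and 10.3% of all genes. Many are low in level: Draxin stood at 1.65 to 2.96 CPM at E18 and at 0.818 and 0 CPM at P1. Efna3, an ephrin, was at -1.06 (SE 0.47), or -0.28 without E18 replicate 1, and Epha10 at -0.51 (SE 0.26). Slit2, a repulsive cue, had the opposite direction, at 6.81, 5.91 and 5.77 CPM at E18 and 9.00 and 11.4 CPM at P1 (log2 0.66, SE 0.32). In neurotrophin and GDNF signalling, which supports survival and target contact, 6 of 20 were positive with a median of -0.18 (left-out range -0.30 without E18 replicate 3 to -0.12 without E18 replicate 1). Without overlap 6 (30%) were lower and 1 (5%) higher, against 10.1% and 10.3% of all genes. The GDNF family receptors Gfra1 and Gfra2 were at -0.66 (SE 0.22) and -0.91 (SE 0.39). Gfra1 stood at 41.8, 39.2 and 37.9 CPM at E18 and at 22.1 and 29.4 CPM at P1. The receptor Ntrk2, for brain-derived neurotrophic factor, was at -0.18 (SE 0.19).

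Genes for receptors, cell death and transcription factors held single members apart between ages. The thyroid receptor Thrb, needed for hearing, was at 0.44 (SE 0.32), with 17.0 to 23.7 CPM against 26.6 and 27.8 CPM. Chrna3, a nicotinic receptor subunit, was counted at 1.48 to 2.47 CPM at E18 and in 0 of the UMIs of both P1 libraries. Bak1, an effector of programmed cell death, stood at 11.7, 9.61 and 9.89 CPM at E18 and at 5.73 and 2.45 CPM at P1 (log2 -1.23, SE 0.37). Among transcription factors 27 of 75 were positive with a median of -0.15 (left-out range -0.26 without P1 replicate 2 to -0.05 without E18 replicate 1). Nfic, of the nuclear factor I family, had the opposite direction to Sox11 and Gata3, at 38.2, 41.4 and 43.7 CPM at E18 and 64.2 and 76.0 CPM at P1 (log2 0.77, SE 0.26).

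The 12 genes named for the largest log2 differences below 0, after Gm10320, were Rsrp1, Stk38, Fam89a, Zfp266, Ppp1r16a, Ogt, Zcchc12, Racgap1, Tmem132e, Ranbp3, Ucp2 and Sumf2. For 5 of them the value rested on E18 replicate 1: without it Rsrp1 moved from -1.35 to -0.68, Ogt from -1.08 to -0.35, Racgap1 from -1.04 to -0.48, Tmem132e from -1.04 to -0.39 and Ranbp3 from -1.0 to -0.39. Ogt, the enzyme that puts sugar groups on nuclear and cytosolic proteins, stood at 123 CPM in that library and at 42.1, 47.8, 36.0 and 33.5 CPM in the others. Levels of 3 others follow. Stk38, a kinase, stood at 40.2, 22.2 and 47.0 CPM at E18 and at 15.1 and 17.2 CPM at P1 (log2 -1.20, SE 0.30). Fam89a stood at 40.8, 35.5 and 37.1 CPM at E18 and at 18.8 and 15.5 CPM at P1 (log2 -1.12, SE 0.26). Zfp266, a zinc finger gene, stood at 36.3, 31.1 and 27.2 CPM at E18 and at 17.2 and 11.4 CPM at P1 (log2 -1.11, SE 0.24). The naming rule required lower P1 libraries without overlap, so that separation was fixed by the choice of genes. None of these 3 passed in edgeR (adjusted p = 0.253 to 0.256).

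None of the 29 tested immediate early genes, which follow neuronal activity and dissociation, had libraries without overlap. Among all genes 10.3% were higher and 10.1% lower without overlap. Of the 29, 15 were positive, with a median of 0.04 (-0.12 both without E18 replicate 1 and under total counts, left-out range -0.20 without P1 replicate 2 to 0.14 without E18 replicate 2). Glucocorticoid response genes, which follow the hormone surge near birth, had 5 of 14 positive and a median of -0.05 (left-out range -0.34 without P1 replicate 1 to -0.003 without E18 replicate 2, and -0.20 under total counts). Heat shock and unfolded protein genes had 17 of 34 positive and a median of -0.01 (left-out range -0.11 without P1 replicate 1 to -0.003 without E18 replicate 3), with Hsph1, a chaperone, at 50.9, 54.0 and 49.4 CPM at E18 and 38.9 and 28.6 CPM at P1 (log2 -0.58, SE 0.20). Cholesterol synthesis genes had 9 of 25 positive and a median of -0.13 (left-out range -0.28 without P1 replicate 1 to -0.01 without P1 replicate 2). Msmo1, a demethylating oxidase of that pathway, was at -0.92 (SE 0.30), or -0.49 without E18 replicate 1.

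Among markers of other cell types, the sums of the red blood cell, hair cell and melanocyte lists did not overlap between ages. The red blood cell list summed to 63.8, 69.5 and 41.2 CPM at E18 and to 13.9 and 13.1 CPM at P1 (exact two-sided permutation p = 0.2, the smallest possible), with Hbb-bs at 47.6, 51.7 and 29.7 CPM against 10.2 and 8.99 CPM (log2 -2.15, SE 0.71). Hair cell markers summed to 398 to 535 CPM at E18 and to 630 and 692 CPM at P1, and Cib2 made the most of that sum, at 239 to 377 CPM at E18 and 393 and 461 CPM at P1. Melanocyte markers summed to 3.57, 3.70 and 2.47 CPM at E18 and to 2.45 and 1.64 CPM at P1. The part of these 3 lists in other differences was not tested. Larger sums were those of the geniculate and vestibular neuron list, at 6861, 4562 and 5032 CPM at E18 and 7157 and 3121 CPM at P1. They overlapped between ages and were spread within P1, and the part of other neurons in them was not tested. Other lists overlapped between ages in their summed level: glia at 282 to 374 CPM at E18 and 307 and 407 CPM at P1, otic mesenchyme at 291 to 391 and 290.0 and 382 CPM, supporting epithelium at 88.7 to 109 and 98.2 and 120 CPM, endothelium at 29.5 to 52.7 and 36.0 and 53.1 CPM, and macrophages at 3.70 to 28.8 and 7.77 and 31.1 CPM.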

How the data were processed

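Single-cell RNA profiles were measured in 14 libraries, of which 5 are compared. The authors deposited UMI counts per gene and cell without normalization, and a second table of natural log (ln) values, the ln of 1 plus counts per 10000 UMIs of the cell. Cell Ranger 3.0.1, Seurat 3.2 and the mm10 (GRCm38) build are named per the submitters' processing notes; filters on cells and doublets are not given in the sources used here, and no doublet caller was run. The deposited count table ends after 17999 of 26655 genes, and counts of the other 8656 genes (28.2% of UMIs) were computed back from the ln table, all whole within 0.001. Cells were assigned to libraries by the number that ends the cell name and the sample number in the descriptions, a match that the labels do not put in words.

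Counts were summed per library and tested with edgeR 4.0.16 (R 4.3.3, TMM, filterByExpr, quasi-likelihood F test, contrast P1 minus E18, Benjamini-Hochberg over 12547 genes). All 11 profiles entered the fit: 3 at E14, 3 at E16 with apical and basal portions summed, 3 at E18 and 2 at P1. SE is the absolute log2 value over the root of F. CPM is counts over TMM-scaled totals. Distributions over cells used counts thinned to 5000 UMIs, with shallower cells left out. The script was tested on simulated data. Named genes were those with an adjusted p under 0.05, then, up and down, the 12 with the largest log2 values that had an unadjusted p under 0.05, at least 20 CPM in the higher age and no overlap of libraries, then up to 4 members of each list with the smallest p, and the members of the sodium channel, calcium-binding and subtype lists; not all are printed, and genes outside this rule are printed by value as examples. Mitochondrial, ribosomal protein, haemoglobin, Xist, Tsix, Y-linked and unnamed genes were left out of the second step. Members and lists were chosen with earlier results of these data known. DESeq2 1.42.0, other scalings, filters and depths and leaving out libraries were alternatives. GENCODE gave coordinates, and RefSeq promoters of GRCm38.p6 gave sequences. Some members of the lists are counted but not reported here by name.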

Additional observations from a re-analysis of the deposited data

How the results depend on the processing

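With 2 P1 libraries, single genes are weakly resolved. The main edgeR p-values rest on a spread estimated over all profiles in the fit, including those of the 2 younger ages. They do not measure the spread between the E18 and P1 pools alone. The count of genes called higher, 0 in edgeR, was 14 with DESeq2 and 40 with no filter on low counts. The count called lower, 1, was 0 when only E18 and P1 libraries were fitted and 33 with no filter, and leaving out single libraries gave 0 to 1, with 0 without P1 replicate 1 and without P1 replicate 2. Genes with an unadjusted p under 0.05, 1149 in all, numbered 428 when only these 5 libraries were fitted and 990 to 1660 with 1 library left out. With CPM over all UMIs, higher genes without overlap numbered 738 and lower ones 1846. With fewer libraries to overlap, leaving 1 out gave 1861 to 3308 higher and 2002 to 3304 lower. Replicate numbers only name samples here, and with the replicate number as a block 0 genes were called higher, 1 lower and 1267 had an unadjusted p under 0.05. Apart from the stated exceptions the cause of these moves was not tested. Of 891 list medians under alternatives, 101 had the opposite sign, 15 of them under total counts, 15 without P1 replicate 1, 13 without E18 replicate 1 and 10 without P1 replicate 2.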

Other observations

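Genes were also grouped by the letters that begin their symbols, over 90 groups of at least 12 tested genes. These groups were formed after the data were seen and carry no test. The Rgs genes, which speed the shut-off of G protein signals, had a median log2 difference of 0.38 with 8 of 13 positive. The Timm genes, which import proteins into mitochondria, had 0.35 with 11 of 12 positive. Timm10 stood at 135, 109 and 137 CPM at E18 and at 205 and 176 CPM at P1. At the other end, the Kdm genes, most of which encode histone demethylases, had a median of -0.38 with 2 of 17 positive, and -0.37 without E18 replicate 1.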
